A study of Mus musculus with 16 samples.

Results

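Itgae, Itga1, Cd69 and Cxcr6 are surface-receptor genes by which resident T cells of peripheral tissue are usually recognised, and Cxcl16 encodes the only known ligand of Cxcr6. The 5 genes were chosen by name, and their rows were found by the symbol that opens each row name, so that they are 5 of the 24469 symbols in the tables. Itgae and Itga1 encode integrin α chains: the first pairs with the β7 chain into a receptor for E-cadherin, the second with the β1 chain into a receptor for collagen. Cd69 binds the sphingosine-1-phosphate receptor S1pr1 and holds it inside the cell, which keeps lymphocytes from leaving tissue. Cxcl16 is made as a membrane protein that holds Cxcr6-bearing cells on the surface of the cell that makes it, and the proteases Adam10 and Adam17 can release it as a soluble chemokine.

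The study asks how the loss of Aire, a regulator of self-antigen expression in the thymus, changes the immune response to a tumor and to blockade of the checkpoint receptor PD1. MC38 cells, a mouse colon carcinoma line, were grown in 8-week-old C57BL/6 mice that were Aire+/+ or their Aire-/- littermates. The mice received anti-PD1 or an isotype antibody (5 mg/kg), 5 times from day 0 to day 14 (with days 3, 7 and 10 between), and tumors and spleens were taken on day 19. Each condition pooled the tumors of 4 to 6 mice and likewise spleens, and CD45+ or CD8+ cells were sorted from each pool, which gave 16 single-cell RNA libraries, 1 for each condition, tissue and sort. Runs of 4 values give the Aire+/+ mice before the Aire-/- mice, and within each genotype isotype before anti-PD1. Each condition is 1 pool, so comparisons between single conditions have no replicates and were not tested. A joint test of genotype and treatment over the 4 conditions was not run. The intervals given (95%, exact) cover counting error only.

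Each value is a number of unique molecular identifiers (UMIs), which stand for captured RNA molecules. The tumor CD8 sort held 35163274, 27052444, 22414023 and 23271160 UMIs over 2684, 2221, 1858 and 2212 cells, with medians of 11163.5, 10349, 10198.5 and 8883 per cell. The spleen CD8 sort held 20126140, 19167788, 15590029 and 16279427 UMIs over 2898, 2944, 2339 and 2629 cells, with medians of 6405, 6304.5, 6282 and 5801. The tumors were thus the deeper tissue, and the Aire-/- anti-PD1 tumor the shallowest tumor library of the sort. The tumor CD45 sort held 38930017, 28760714, 24639370 and 23282799 UMIs over 2930, 2208, 1856 and 2075 cells, and the spleen CD45 sort 12131827, 10927391, 11179227 and 12618095 over 2095, 2088, 2023 and 2393 cells. Median UMIs per cell of the CD45 sort were 11892, 11858.5, 12251.5 and 9889 in the tumors and 4549, 4413.5, 4733 and 4502 in the spleens. Aire itself had 0, 2, 1 and 0 UMIs in the tumor CD45 sort, 6, 3, 1 and 0 in the tumor CD8 sort and 2, 5, 4 and 0 in the spleen CD45 sort. In the spleen CD8 sort Aire had 0 UMIs in all 4 libraries. These counts are too few to check the genotype labels.

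Of 37453 cells, 861 barcodes occurred in more than 1 library, with 2 to 18 shared by a pair of libraries and a median of 7. The CD8 sort was not pure. Of its 11 clusters, made without the 5 genes, clusters 7 to 10 had the markers of plasmacytoid dendritic, type 1 dendritic, macrophage and B cells, and they held 5.92%, 3.56%, 3.61% and 2.31% of the tumor cells and 3.52%, 2.58%, 2.05% and 2.93% of the spleen cells. Many of the macrophage-like cells also held T cell RNA, and 5 of 12, 6 of 15, 13 of 28 and 29 of 37 of them in the tumors passed the CD8 T cell gate described below, with all 13 that had an Itgae UMI in the Aire-/- anti-PD1 tumor. Tests and co-detection in the CD8 sort for the 5 genes are therefore given with clusters 7 to 10 and without them. Ratios between the tumors are given both ways for Itgae, and for the other members over all cells unless stated. The remaining 7 clusters are called T cell clusters. A CD8 T cell gate, which asks for a Cd3-family UMI beside a Cd8a or Cd8b1 UMI, passed 2547, 2154, 1801 and 2188 of the tumor cells. No doublet caller was run. The 8 genes of other lineages (C1qa, C1qb, C1qc, Apoe, Lyz2, Cst3, Cd79a and Cd79b) summed to 581.7, 460.1, 604 and 387 counts-per-million (CPM) in the tumor CD8 sort, with Cst3 the most abundant at 453, 305, 342 and 279 CPM, and results without cells that hold 3 or more of their UMIs (37.7% to 47.5% of the tumor CD8-sort cells) are given where they moved.

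In the CD8 sort Itgae was the member whose level differed most between the tumors by ratio. Its level in the tumor CD8 sort was 17.4, 29.2, 41.4 and 85.0 CPM (95% intervals 16.1 to 18.9, 27.2 to 31.3, 38.8 to 44.2 and 81.3 to 88.8). The lowest library was Aire+/+ isotype and the highest Aire-/- anti-PD1, both Aire-/- tumors lay above both Aire+/+ tumors, and within each genotype the anti-PD1 tumor lay above the isotype tumor. In the T cell clusters alone the levels were 18.01, 30.1, 43.0 and 85.4 CPM, in the same order of libraries. A UMI of Itgae was found in 8.68%, 11.5%, 15.9% and 27.1% of the cells, and in 5.66%, 7.92%, 10.2% and 19.9% after each cell was thinned at random to 3000 UMIs. Thinned in the same way, 0.0816% of the macrophage-like cells of the tumor CD45 sort had a UMI of Itgae, at a median depth of 12386 UMIs against 8883 to 11163.5 in the CD8 sort. Those cells come from other libraries. Inside the tumor CD8 sort, unthinned, 3 of 143, 5 of 63, 0 of 39 and 0 of 13 plasmacytoid dendritic-like cells had a UMI of Itgae. The share that free RNA gives in the CD8 sort was not measured. No tumor cell lay under 3000 UMIs, while 82, 180, 119 and 149 cells of the spleen CD8 sort and 257, 275, 138 and 192 of the spleen CD45 sort did and were left out when thinned.

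Between tumors that differ in genotype only, the log2 ratio of Itgae, Aire-/- over Aire+/+, was 1.54 (1.42 to 1.66) under anti-PD1 and 1.25 (1.10 to 1.40) under isotype. Between tumors that differ in treatment only, anti-PD1 over isotype, it was 0.74 (0.59 to 0.90) in Aire+/+ and 1.04 (0.92 to 1.15) in Aire-/- mice. These 4 ratios share libraries in pairs, so they are not 4 independent results. Without clusters 7 to 10 they were 1.51, 1.26, 0.74 and 0.99, and without cells that hold 3 or more other-lineage UMIs they were 1.38, 1.002, 0.64 and 1.02. Itgae was the 1 member of 5 that was at least 1.5-fold higher in the Aire-/- than in the Aire+/+ anti-PD1 tumor, where 2.44% of the 10829 genes with at least 50 UMIs over the pair were, and 4.42% were as much lower. Between the isotype tumors 1 of 5 was, against 3.33% of 11164 genes higher and 4.78% lower. For anti-PD1 over isotype it was 1 of 5 in Aire+/+ mice, against 1.8% of 11173 genes, and 1 of 5 in Aire-/- mice, against 1.93% of 10800 genes. No member was lower by that factor in the first 3 pairs (4.46% of the genes were in the Aire+/+ pair), and in the last pair Cxcl16 was, with a log2 ratio of -1.07, against 4.86% of the genes. In the T cell clusters alone the members at least 1.5-fold higher were 1 of 5 (Aire-/- over Aire+/+, anti-PD1, against 2.81% of genes higher and 2.04% lower), 2 of 5 (the same, isotype, against 2.9% and 3.22%), 2 of 5 (anti-PD1 over isotype, Aire+/+, against 1.64% and 2.89%) and 1 of 5 (the same, Aire-/-, against 2.14% and 2.22%). Itgae was among them each time, and where 2 were counted the other was Cxcl16, on 75 to 86 UMIs over the pair. Cxcl16 was also the 1 member that was lower there, in the last of these pairs.

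**Figure D1:**
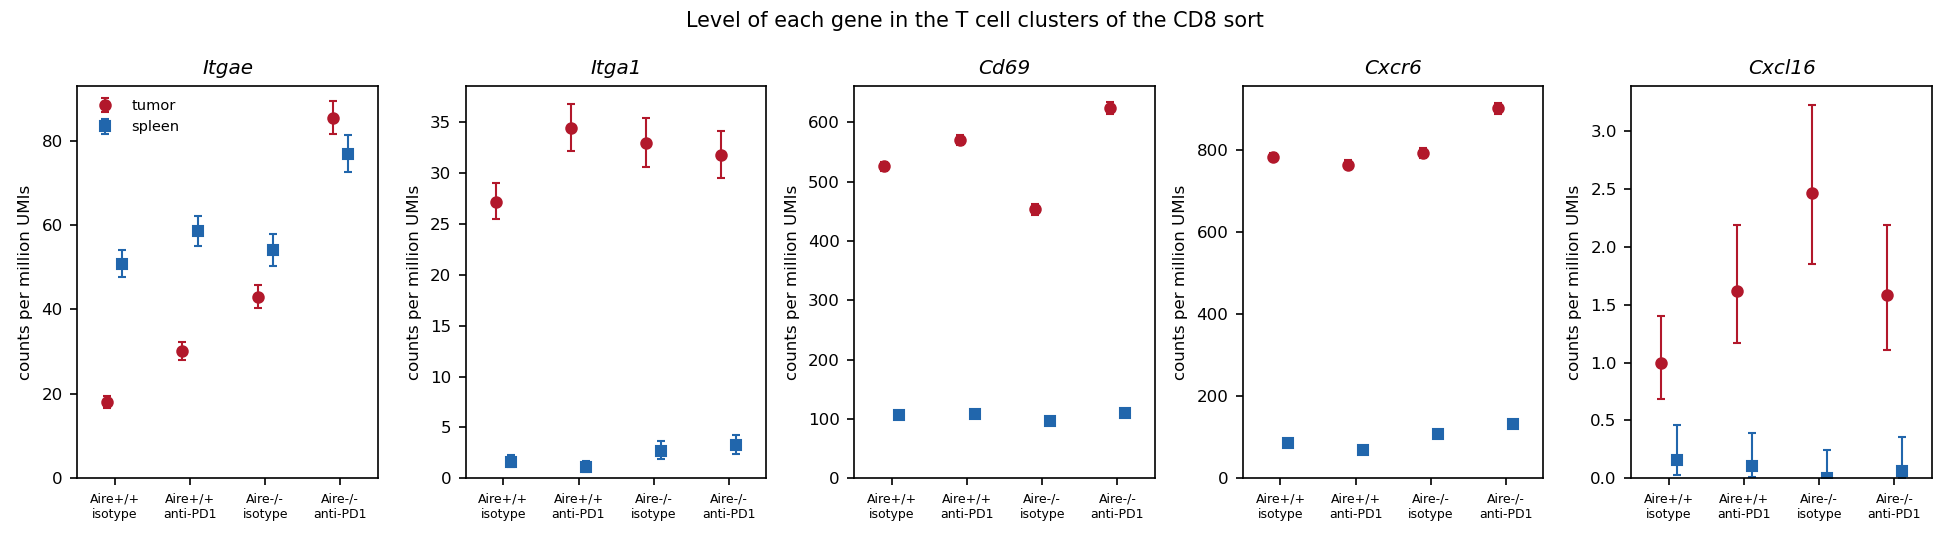
Level of each gene in CPM in the T cell clusters of the CD8 sort, for each condition of tumor and spleen, with exact 95% intervals for counting error. Itga1, Cd69 and Cxcr6 lie higher in all 4 tumors than in all 4 spleens, while the tumor values of Itgae run from 18.01 to 85.4 and span the spleen values.

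The spleens did not show the same range. Itgae had 51.8, 59.0, 53.2 and 76.6 CPM in the spleen CD8 sort, and 22.8%, 24.1%, 22.1% and 26.1% of the cells had a UMI (14.3%, 14.9%, 14.1% and 18.4% thinned). The Aire-/- anti-PD1 spleen was the highest and the other 3 lay close together. Log2 ratios of Aire-/- over Aire+/+ in the spleens were 0.38 under anti-PD1 and 0.04 under isotype. As mean and SD over the 4 conditions, Itgae had 43.3 ± 29.5 CPM in the tumors and 60.2 ± 11.4 in the spleens (n = 4 libraries each). By CPM it was lower in the tumor than in the spleen for 3 of 4 conditions and higher for Aire-/- anti-PD1. In cells thinned to the same depth it had 27.4, 45.8, 61.9 and 138.6 CPM in the tumors and 60.3, 64.5, 61.1 and 85.1 in the spleens, so that only the Aire+/+ tumors were lower and the order of the tissues depends on the measure. Over these 8 libraries, with the condition as a block, the edgeR quasi-likelihood test gave a log2 fold change of -0.78 for tumor minus spleen (SE 0.35, adjusted p = 0.107), which misses the threshold. Without clusters 7 to 10 it was -0.72 with an adjusted p of 0.123 in edgeR, and over 12 alternatives it lay between -1.08 and -0.27, past the threshold in 1.

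Within the tumor CD8 sort Itgae lay mainly in cluster 2, which was led by the interferon-induced genes Ifit3, Cxcl10, Ifit1 and Isg15 and had no name from the marker lists. In its 719, 692, 618 and 1028 tumor cells Itgae had 50.4, 77.8, 95.01 and 193 CPM, with a UMI in 18.9%, 24.1%, 26.1% and 43.2% of the cells. The order of the 4 tumors was the same as over all cells. Cluster 2 held 55.0%, 62.4%, 55.4% and 78.4% of all Itgae UMIs of the tumor libraries, and 28.5%, 32.3%, 34.5% and 47.6% of the T cells. In cluster 1, the activated CD8-like cells led by Ccl1, Ccl3, Gzmf and Ifng, Itgae had 10.2, 15.1, 29.2 and 24.98 CPM. There the Aire-/- tumors also lay above the Aire+/+ tumors, but the highest was Aire-/- isotype. Within cluster 2 the log2 ratio of Itgae, Aire-/- over Aire+/+, was 1.31 (1.17 to 1.46) under anti-PD1 and 0.92 (0.71 to 1.12) under isotype, and anti-PD1 over isotype gave 0.63 (0.42 to 0.83) in Aire+/+ and 1.03 (0.88 to 1.17) in Aire-/- mice. Within cluster 1 the ratios of Itgae in the same order were 0.73, 1.51, 0.56 and -0.22 (-0.46 to 0.01), so that in Aire-/- mice the anti-PD1 tumor lay no higher there. The higher Itgae level of the Aire-/- tumors was thus present inside both large clusters, beside the larger share of cells in cluster 2. Cluster 5, led by the cell-cycle genes Stmn1 and Top2a, had 4.22, 9.53, 7.98 and 21.6 CPM of Itgae. In the spleens the naive T-like cluster 0, led by Lef1, Igfbp4 and Dapl1, had 56.8, 66.5, 57.9 and 75.0 CPM of Itgae, and cluster 6, led by Ccl5, Gzma, Itgb1 and Klrg1, had 101, 125, 112 and 232. Cluster 3, led by Rnr1, Snord35a and Rnr2 and without a name from the marker lists, had 64.2, 64.3, 66.4 and 89.2 CPM in the spleens. Cluster 4, led by Klra23, Gzmm and Eomes, had 2.48, 6.22, 0.865 and 6.97 CPM, the lowest of the large splenic clusters.

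**Figure D2:**
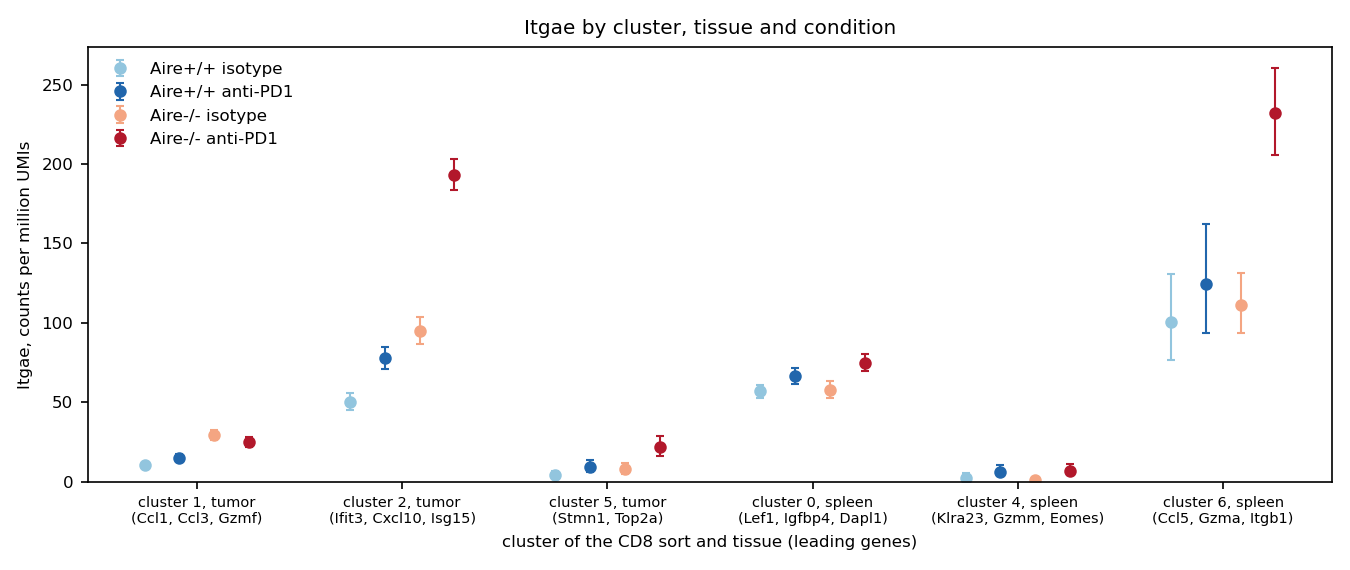
Itgae in CPM in tumor clusters 1, 2 and 5 and spleen clusters 0, 4 and 6 of the CD8 sort, by condition, with exact 95% intervals for counting error. Cluster 3 is not drawn. Cluster 2 of the tumors reaches 193 in Aire-/- anti-PD1 mice and cluster 6 of the spleens 232, while clusters 1, 4 and 5 stay under 30.

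The CD45 sort gives a separate set of libraries from the same conditions. Its tumor cells that passed the Cd3 and Cd8 gate numbered 159, 218, 226 and 744, and Itgae had 33.0, 43.6, 34.8 and 85.3 CPM in them. Here the Aire-/- anti-PD1 tumor was again the highest, and the other 3 overlapped in their intervals of 25.3 to 42.3, 35.5 to 53.0 and 28.2 to 42.4. Set as Aire-/- over Aire+/+, Itgae had a log2 ratio of 0.97 (0.66 to 1.28) under anti-PD1 and 0.08 (-0.40 to 0.56) under isotype, whose interval excludes the 1.25 seen in the CD8 sort. In the activated CD8-like cluster of the CD45 sort, with 160, 250, 264 and 790 cells, Itgae had 14.7, 31.6, 28.8 and 87.6 CPM, and the same isotype ratio was 0.97. Past 1.5-fold in the gated cells were Itgae for Aire-/- over Aire+/+ under anti-PD1 (1 of 5 members, against 6.17% of genes higher and 3.44% lower), Itga1 for the same under isotype (1 of 5, against 4.63% and 3.48%) and Itga1 for anti-PD1 over isotype in Aire+/+ mice (1 of 5, against 4.97% and 5.26%). In Aire-/- mice Itgae and Cd69 were higher with anti-PD1 (2 of 5, against 4.84% and 4.1%), and in both of the last pairs Cxcl16 was lower. The isotype difference of Itgae in the CD45 sort thus moved with how its CD8 cells were picked.

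Over the cell classes of the tumor CD45 sort, Itgae was highest in type 1 dendritic-like cells, with 238 CPM (205 to 275) over 39 cells, and in regulatory T-like cells, with 189 CPM (176 to 202) over 428 cells. The regulatory T-like cells ranged from 154 to 239 CPM over the 4 libraries, so these 2 classes were not separated beyond that spread. Itgae was found in 57.5% of the regulatory T-like cells and, thinned, in 38.6%, against 14.1% of the activated CD8-like cells. Next came cluster 3, led by Lef1 and Tcf7, with 60.2 CPM, and the activated CD8-like cells with 59.0 CPM, whose libraries ran from 14.7 to 87.6. Levels of Itgae were 26.5 CPM in the dendritic cluster led by Ifitm1, Il1r2 and H2-Eb1, 3.39 in NK-like, 1.71 in monocyte-like and 0.439 in macrophage-like cells. Counted over every cell of the CD45 sort, Itgae had 12.6, 15.3, 12.0 and 41.7 CPM in the tumors and 7.01, 7.23, 8.32 and 12.8 in the spleens. In the spleen B-like cells, 0.142% had a UMI of Itgae at a median depth of 4099.

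The β chains and the ligand of the integrins were measured in the same cells. Itgb7, the partner of the Itgae product, had 99.0, 110.1, 117 and 170.0 CPM in the tumor T cell clusters and 364, 334, 356 and 384 in those of the spleens. All 4 tumors lay below all 4 spleens, and the order of the tumors was that of Itgae. CPM of this paragraph are those of the T cell clusters, while fold changes are over all cells of the sort. The edgeR log2 fold change of Itgb7, tumor minus spleen, was -1.62 (adjusted p = 6.83e-05, lower in 4 of 4 conditions). Itgb1, the partner of the Itga1 product, had 176, 197, 198 and 242 CPM in the tumors and 113, 81.8, 151 and 210.5 in the spleens, higher in the tumor for 4 of 4 conditions with a log2 fold change of 0.51 in edgeR (adjusted p = 0.0317). Cdh1, which encodes E-cadherin, had 8.72, 8.10, 10.6 and 14.4 CPM in the tumors and 0.634, 0.490, 0.856 and 0.575 in the spleens. It was low in both tissues and higher in the tumor for 4 of 4 conditions (edgeR log2 fold change 3.89, adjusted p = 8.05e-07). The fold changes without clusters 7 to 10 were -1.65 for Itgb7, 0.53 for Itgb1 and 3.92 for Cdh1.

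Transforming growth factor β is known to induce Itgae, and genes of that pathway were on a list of 15 partners fixed with the tests. Of these 15 genes 6 were higher and 5 lower in tumor than in spleen CD8 cells, with a median log2 fold change of 0.16 beside -0.03 over all 11729 genes tested. All genes had 36.4% higher and 38.5% lower, so these counts are at the background and the single values that follow are descriptions. Tgfb1, the ligand, had a log2 fold change of 1.67 (adjusted p = 1.03e-05 in edgeR) and Skil, an inhibitor of the signal that the signal itself induces, 2.20 (adjusted p = 6.58e-06). Smad7, another induced inhibitor, had 0.71 (adjusted p = 0.000101 in edgeR). Lower in the tumors were the receptor genes Tgfbr1, with -1.36, and Tgfbr2, with -0.28, and the signal carrier Smad3, with -1.501. The cytokine gene Il15 had 0.28 (adjusted p = 0.389 in edgeR) and its receptor chain Il15ra 0.86 (adjusted p = 0.000213). Between the Aire-/- and Aire+/+ anti-PD1 tumors, 5 of the 15 partners were at least 1.5-fold higher in the T cell clusters and none was lower. Of all genes 2.81% were higher there and 2.04% lower. Of those 5, Itgb7 had a log2 ratio of 0.63, Cdh1 0.83 and S1pr1 0.90, all smaller than that of Itgae. The others, Il15 and Smad3, rest on few UMIs, with 0.810 and 2.78 CPM in the Aire+/+ and 1.58 and 4.61 in the Aire-/- tumor. Over all cells of the sort 4 of the 15 were higher, beside 2.44% of all genes. In the gated CD8 cells of the CD45 sort 1 of 14 partners was higher and 1 lower, beside 6.17% and 3.44% of all genes, so this count is at the background. Under isotype 1 of the 15 partners was at least 1.5-fold higher in the T cell clusters, beside 2.9% of all genes. It was Il15, whose levels of 0.908 and 1.44 CPM rest on few UMIs. For anti-PD1 over isotype none of the 15 was past 1.5-fold in either genotype. Of all genes 1.64% were higher and 2.89% lower in Aire+/+ mice, and 2.14% and 2.22% in Aire-/- mice. The isotype and treatment counts are thus at the background.

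Itga1 was low in the spleens and level across the tumors. Its level in the tumor CD8 sort was 25.6, 33.0, 31.8 and 31.3 CPM, against 1.79, 1.15, 2.63 and 3.13 in the spleens. All 4 tumors lay above all 4 spleens, at 30.4 ± 3.31 against 2.17 ± 0.881 CPM (mean and SD, n = 4 libraries each), and the lowest tumor was Aire+/+ isotype. The edgeR test gave a log2 fold change of 3.75 (SE 0.20, adjusted p = 1e-05, higher in 4 of 4 conditions), and 3.82 without clusters 7 to 10. A UMI of Itga1 was found in 23.8%, 27.8%, 27.4% and 23.7% of the tumor cells (8.05%, 9.73%, 8.77% and 9.45% thinned) and in 0.932%, 0.645%, 1.45% and 1.56% of the spleen cells. Macrophage-like cells of the tumors, thinned, had it in 1.09%. Log2 ratios of Itga1 between tumors, Aire-/- over Aire+/+, were -0.08 under anti-PD1 and 0.31 under isotype, and anti-PD1 over isotype gave 0.37 in Aire+/+ and -0.02 in Aire-/- mice, all under 1.5-fold. In contrast to Itgae, Itga1 was near equal in the large tumor clusters, with 27.5, 35.4, 36.2 and 30.3 CPM in cluster 1 and 30.2, 37.9, 35.3 and 35.7 in cluster 2. In the spleens cluster 6 held 72.2%, 72.7%, 82.9% and 80.4% of the Itga1 UMIs, with 46.0, 36.9, 27.3 and 33.9 CPM, while the naive T-like cluster 0 had 0 UMIs of Itga1 in 2134, 1539, 1250 and 1711 cells, which allows at most 0.261, 0.355, 0.449 and 0.360 CPM. In the tumor CD45 sort Itga1 was highest in NK-like cells, with 38.6 CPM (29.9 to 45.8 over the libraries), and in activated CD8-like cells, with 32.0 (23.1 to 34.9), whose ranges overlap. Monocyte-like cells had 16.6 CPM (10.5 to 26.2), regulatory T-like cells 6.38 and macrophage-like cells 3.18.

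Cd69 was higher in the tumors than in the spleens in every condition. The tumor CD8 sort had 531, 572, 458 and 628 CPM and the spleen CD8 sort 101, 106, 94.7 and 107, so that the tissues did not overlap. Means were 547 ± 71.7 and 102 ± 5.65 CPM (SD, n = 4 libraries each), and the edgeR log2 fold change was 2.32 (SE 0.07, adjusted p = 1.53e-07, higher in 4 of 4 conditions). In the T cell clusters alone the fold change was 2.27. Among the tumors Aire-/- isotype was the lowest and Aire-/- anti-PD1 the highest. Log2 ratios of Aire-/- over Aire+/+ were 0.13 under anti-PD1 and -0.22 under isotype, and anti-PD1 over isotype gave 0.11 in Aire+/+ and 0.46 in Aire-/- mice. The last ratio of Cd69 lay between 0.42 and 0.60 over 7 alternatives and passed 1.5-fold in 2. Thinned, 63.9%, 64.9%, 53.5% and 57.2% of the tumor cells and 20.9%, 21.6%, 20.4% and 21.7% of the spleen cells had a UMI of Cd69, against 1.62% of the splenic monocyte-like cells at a median depth of 8230.5. Cd69 was one of the leading genes of cluster 2, where it had 1223, 1234, 1017 and 1324 CPM, and it had 344, 375, 276 and 253 CPM in cluster 1. Within cluster 1 both Aire-/- tumors lay below both Aire+/+ tumors. S1pr1, which Cd69 retains, had the opposite tissue pattern, with 24.7, 20.98, 27.0 and 39.1 CPM in the tumor T cell clusters and 263, 259.7, 244 and 287 in those of the spleens (edgeR log2 fold change -3.36, adjusted p = 1.59e-05, lower in 4 of 4 conditions). Of the classes of the tumor CD45 sort with at least 20 cells in each library, activated CD8-like cells had the most Cd69, 678 CPM (521 to 819 over the libraries), followed by regulatory T-like cells with 349 (323 to 426) and NK-like cells with 345 (278 to 386), which overlap. Macrophage-like cells had 150.4 CPM of Cd69 (136 to 160).

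Cxcr6 separated the tissues as well. It had 739, 735, 762.4 and 889 CPM in the tumors and 80.3, 67.1, 105 and 128 in the spleens. All tumors lay above all spleens (781 ± 72.7 against 94.9 ± 26.7 CPM, mean and SD, n = 4 libraries each), the Aire-/- anti-PD1 library was the highest of each tissue, and the other 3 tumors lay close together. The edgeR log2 fold change was 2.98 (SE 0.10, adjusted p = 7.56e-07, higher in 4 of 4 conditions), and 2.99 in the T cell clusters alone. Thinned, 69.6%, 71.8%, 71.5% and 76.8% of the tumor cells and 18.2%, 15.5%, 20.1% and 21.1% of the spleen cells had a UMI of Cxcr6, against 0.408% of the macrophage-like cells of the tumors. Log2 ratios between tumors were 0.27 (Aire-/- over Aire+/+, anti-PD1), 0.05 (the same, isotype), -0.01 (anti-PD1 over isotype, Aire+/+) and 0.22 (the same, Aire-/-). Cluster 1 held the most Cxcr6, with 949, 895, 983 and 1017 CPM, and cluster 2 had 612, 649.7, 718 and 920.2. The tumors differed more in cluster 2, where Aire-/- anti-PD1 was the highest. In the spleens Cxcr6 was 0.93 higher on the log2 scale (0.82 to 1.03) in Aire-/- than in Aire+/+ mice under anti-PD1, and 2 of 5 members, Cxcr6 and Itga1, were at least 1.5-fold higher there, against 5.42% of 10181 genes higher and 2.56% lower. In the other splenic pairs the members past 1.5-fold were Cxcl16 and Itga1 on few UMIs. None was higher and 1 lower for Aire-/- over Aire+/+ under isotype (4.28% of genes higher, 3.66% lower), none higher and 2 lower for anti-PD1 over isotype in Aire+/+ mice (1.51% and 3%), and 1 higher and none lower in Aire-/- mice (2.78% and 1.81%). In the T cell clusters 4 members were tested, and 2 were higher for Aire-/- over Aire+/+ under anti-PD1 (4.67% of genes higher), 1, Itga1, under isotype (4.68%), and none in the other splenic pairs (1.61% in Aire+/+ and 1.44% in Aire-/- mice). Most of the splenic range lay in cluster 6, with 506, 433, 518 and 776 CPM of Cxcr6, against 72.7, 62.9, 66.1 and 75.2 in cluster 0. Cluster 6 made up 3.58%, 3.21%, 9.69% and 8.74% of the splenic T cells. In the tumor CD45 sort Cxcr6 had 750.5 CPM (570.0 to 825 over the libraries) in activated CD8-like, 325 (269 to 353) in regulatory T-like and 26.9 in NK-like cells. Those ranges do not overlap.

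Across the whole transcriptome of the CD8 sort, tissue was a large contrast. Of 11729 genes tested, 36.4% were higher and 38.5% lower in tumor than in spleen at an adjusted p under 0.05, against 4 of 5 members higher and none lower. Without clusters 7 to 10 it was 37.7% and 39.8%, against the same 4 of 5 members. Of these 4, Cxcl16 rests on few UMIs there. It had 0.999, 1.62, 2.47 and 1.58 CPM in the T cell clusters of the tumors and 0.158, 0.109, 0 and 0.0639 in those of the spleens. With over 1 in 3 genes called each way, a single member's call says little. The members and the lists below were chosen with earlier results of these data known. Their counts are therefore descriptions and cannot be set against the background as support. The members had a median log2 fold change of 2.32, beside -0.03 over all genes, a signed median that does not measure how far other genes moved. Of the residency list, genes known to be higher in resident memory T cells, 17 of 18 tested were higher and 1, P2rx7, was lower, with a median of 3.26. The partners share Cdh1 and Skil with this list, S1pr1 with the recirculation list and Itgb1 and Itgb7 with the integrins, and Zfp683 of the list has no row in the tables. Of the recirculation list, genes known to be lower in resident cells, 11 of 14 were lower and 1, Cx3cr1 with 2.20, was higher, with a median of -2.31. The activation and exhaustion list had 12 of 13 higher and none lower (1 lower without clusters 7 to 10), with a median of 4.93, the highest of these lists. Other integrins were mixed, with 7 of 11 tested higher and 3 lower (median 0.60), and so were chemokine receptors, with 5 of 10 higher and 3 lower (median 0.22). Without clusters 7 to 10 these were 6 of 11 and 3, and 5 of 9 and 3 (medians 0.53 and 0.67).

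Itgae was detected together with the other receptors more often than cells without it, by a margin that depended on the gene. The shares below are of tumor CD8-sort cells thinned to 3000 UMIs, of which 152, 176, 190 and 441 had a UMI of Itgae and 2532, 2045, 1668 and 1771 did not. Cd69 was found in 78.9%, 80.1%, 67.4% and 77.6% of the cells with Itgae and in 63.0%, 63.6%, 51.9% and 52.2% of the cells without. Cxcr6 was found in 78.9%, 80.7%, 83.2% and 85.0% of the cells with Itgae and in 69.1%, 71.0%, 70.1% and 74.7% of those without. Both genes were more frequent beside Itgae in all 4 tumors, with ratios of the shares of 1.25, 1.26, 1.30 and 1.49 for Cd69 and 1.14, 1.14, 1.19 and 1.14 for Cxcr6. Itga1 was found in 17.1%, 18.8%, 13.7% and 10.7% of the cells with Itgae and in 7.50%, 8.95%, 8.21% and 9.15% of those without. The ratios of Itga1, 2.28, 2.10, 1.67 and 1.17, were the widest spread of the 3 and, at this depth, smallest in the Aire-/- anti-PD1 tumor. Thinned to 1000 UMIs, the smallest was 0.732 in the Aire+/+ isotype tumor, with 48 cells with Itgae. Without clusters 7 to 10 Itga1 was found in 17.3%, 19.1%, 13.3% and 10.9% against 8%, 9.24%, 8.55% and 9.36%, Cd69 in 80%, 80.3%, 68.1% and 77.9% against 63.1%, 63.8%, 51.6% and 52.2%, and Cxcr6 in 80%, 81.5%, 84.0% and 85.6% against 73.5%, 73.5%, 72.4% and 75.6%. The directions were the same without those clusters. Itgb7, the partner chain, was found in 63.2%, 59.7%, 51.6% and 69.2% of the cells with Itgae and in 21.8%, 23.2%, 24.6% and 29.5% of those without, a wider gap than for any of the 3 members.

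**Figure D3:**
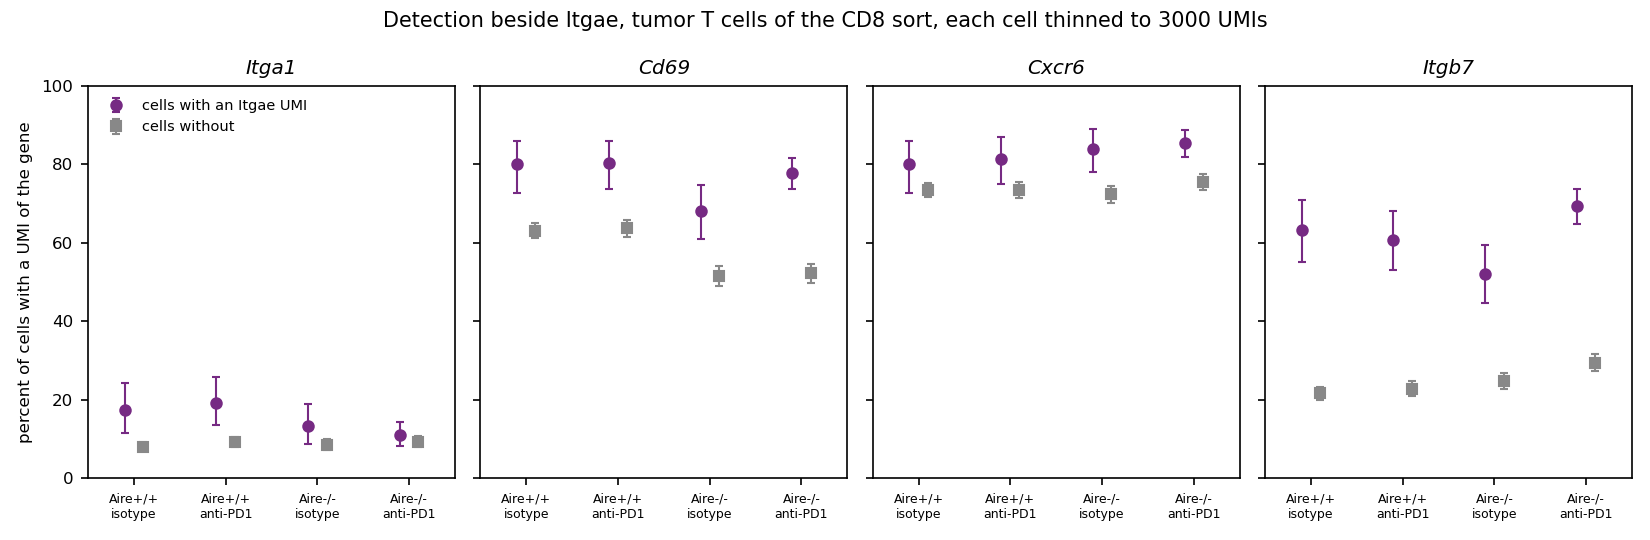
Percent of tumor T cells of the CD8 sort with a UMI of Itga1, Cd69, Cxcr6 or Itgb7, among cells with and without a UMI of Itgae, each cell thinned to 3000 UMIs, with exact 95% binomial intervals. The gap is widest for Itgb7 and, for Itga1, nearly closed in the Aire-/- anti-PD1 tumor (10.9% against 9.36%).

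Within single clusters the co-detection took other values. Within cluster 2 Cxcr6 was found in 86.2%, 81.5%, 82.5% and 86.2% of the cells with Itgae and in 57.8%, 59.4%, 56.6% and 65.6% of those without, a wider gap than over all cells. Within cluster 1 Cxcr6 was found in 70.0%, 85.2%, 92.6% and 88.3% against 83.1%, 82.4%, 85.4% and 85.9%, so that the direction turned in the Aire+/+ isotype tumor. Cd69 within cluster 1 was found in 60.0%, 68.5%, 51.9% and 68.3% against 53.7%, 55.7%, 43.1% and 39.4%. In the spleens, thinned, Cxcr6 was also more frequent beside Itgae (24.3%, 23.0%, 29.3% and 34.9% against 17.2%, 14.2%, 18.6% and 17.98%), while the ratios for Cd69 were 1.05, 0.98, 1.001 and 1.04. Unthinned, the tumor shares of Cd69 were 90.6%, 92.2%, 85.4% and 88.8% against 86.6%, 86.2%, 76.2% and 73.4%, and those of Cxcr6 85.0%, 91.0%, 93.6% and 91.99% against 82.0%, 86.2%, 82.3% and 86.3%. Itga1, unthinned, was found in 29.6%, 30.5%, 30.8% and 24.9% against 23.2%, 27.5%, 26.7% and 23.3%. Among thinned tumor T cells the pattern Itgae, Cd69 and Cxcr6 without Itga1 was seen in 3.01%, 4.01%, 4.80% and 12.1% of the cells and all 4 receptors together in 0.871%, 1.26%, 1.12% and 1.48%. The first pattern was at its highest in the Aire-/- anti-PD1 tumor, where Itgae is most frequent. Cd69 with Cxcr6 and neither integrin was seen in 37.1%, 37.5%, 28.3% and 27.1% of the cells, more often in both Aire+/+ tumors.

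The transcriptomes of tumor CD8-sort cells with and without an Itgae UMI were compared with the library as a block, after thinning to 3000 UMIs, with Itgae left out. Of 9397 genes tested, 7.54% were higher and 6.29% lower in the cells with Itgae, against 3 of the 4 other members higher and none lower. Without clusters 7 to 10 it was 8.24% and 6.49%, against 3 of 3 members tested, with 1.13 for Cd69, 0.39 for Cxcr6 and 0.69 for Itga1. Cd69 had a log2 fold change of 1.11 in edgeR (SE 0.08, adjusted p = 1.14e-08), Itga1 0.73 (SE 0.16, adjusted p = 0.000579) and Cxcr6 0.43 (SE 0.06, adjusted p = 1.9e-07). Each of these was higher in 4 of 4 libraries. Cxcl16 had -0.49 (adjusted p = 0.404 in edgeR). Within cluster 2 the fold changes were 0.44 for Cd69, 0.76 for Cxcr6 and 0.77 for Itga1 in edgeR (adjusted p = 0.000435, 3.15e-09 and 0.00651). Within cluster 1 Cd69 had 0.94 (adjusted p = 7.57e-16 in edgeR), while Cxcr6 with 0.02 (adjusted p = 0.968) and Itga1 with 0.28 (adjusted p = 0.86) missed the threshold. The difference between the clusters was not tested. The number of genes past the threshold was 1300, and 844 without the Aire-/- anti-PD1 tumor, which gave 441 of the cells with Itgae.

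Of the 15 partner genes 14 were tested in that split, and 7 were higher and none lower, with a median log2 fold change of 0.62 beside -0.01 over all genes. Fold changes here are over all cells of the sort unless a cluster is named. Itgb7 had 442, 432, 365 and 486 CPM in the T cell clusters' cells with Itgae and 112, 113, 131 and 174 in those without, so that the groups did not overlap (edgeR log2 fold change 1.71, adjusted p = 4.1e-18, higher in 4 of 4 libraries). Itgb1 had a log2 fold change of 1.32 (adjusted p = 6.15e-19 in edgeR), Cdh1 1.87 (adjusted p = 1.34e-10, and 2.23 without clusters 7 to 10) and S1pr1 1.08 (adjusted p = 2.06e-06). Within cluster 2 alone Itgb7 had 0.95 and Itgb1 0.83 (adjusted p = 3.01e-09 and 1.32e-06 in edgeR), while S1pr1 had -0.02 (adjusted p = 0.979), so its rise was not seen inside that cluster. Over all cells Smad7 and Skil were higher too, with 0.69 and 0.54 (adjusted p = 1.74e-08 and 1.2e-05 in edgeR), but within cluster 2 Smad7 had 0.32 (adjusted p = 0.0404), and Skil missed the threshold in cluster 2 with 0.29 (adjusted p = 0.147) and in cluster 1 with 0.55 (adjusted p = 0.0796). Of the residency list 7 of 17 tested were higher and 2 lower (median 0.20), of the recirculation list 4 of 13 higher and 6 lower (median -0.19), and of the activation and exhaustion list 1 of 13 higher and 5 lower (median -0.37). Within cluster 2 alone 2.92% of 7490 genes were higher and 2.84% lower, and 4 of 14 partners were higher. Of the residency list 7 of 17 were higher there and 1 lower (median 0.25). The activation and exhaustion list had 1 of 13 higher there and 5 lower (median -0.32). Of the recirculation list none of 12 was called higher there and 5 were lower (median -0.53). Of its genes called higher over all cells, S1pr1, S1pr4 and Rasgrp2 had -0.02, 0.10 and 0.28 in cluster 2. Il7r missed the threshold there with a similar fold, 0.25 (adjusted p = 0.133 in edgeR) against 0.33 over all cells. Over all cells, in the residency list Cd101 had 1.60 and Qpct 1.88, and in the recirculation list Eomes had -2.39. The 1 activation gene that was higher was Gzma, which encodes a granule protease, with 1.22 (adjusted p = 3.83e-22 in edgeR), and Prf1, the gene of perforin, had -1.54 (adjusted p = 0.0393), Tox -1.22 and Entpd1 -0.93. Within cluster 2 Gzma had 0.48 (adjusted p = 1.29e-05 in edgeR) and Prf1, with -0.51 (adjusted p = 0.105), missed the threshold, while within cluster 1 Gzma had 1.53 (adjusted p = 5.08e-11) and Prf1 -1.28 (adjusted p = 8.56e-26). Of other integrins 4 of 9 were higher and 2 lower (median -0.06), with Itga4 at -2.90, and of chemokine receptors 4 of 8 were higher and 2 lower (median 0.27), with Ccr2 at 1.497 and Cxcr3 at 1.30 over all cells, 0.53 and 0.46 within cluster 2, and 1.65 and 0.94 within cluster 1, where Cxcr3 missed the threshold (adjusted p = 0.1101 in edgeR). Of the 2 lower receptors Ccr9, in Aire+/+ isotype cells without Itgae, had 99.1 CPM over all cells and 0.561 in the T cell clusters, so that nearly all of it lay in clusters 7 to 10. Without those clusters 4 of 7 chemokine receptors were higher and 1 lower, 3 of 9 integrins higher and 2 lower, and 1 of 13 activation and exhaustion genes higher and 6 lower.

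The 5 genes with the largest rise in the cells with Itgae were Trpm6, a cation channel, with 2.42 (adjusted p = 0.000846 in edgeR), Ccr4, a chemokine receptor, with 2.41 (0.00747), Gpr15, a homing receptor, with 2.37 (0.0171), Src, a tyrosine kinase, with 2.33 (4.77e-06), and Nacc2, a transcriptional repressor, with 2.29 (1.01e-05). This order rests on few UMIs, as Trpm6 had 6.58, 11.4, 7.02 and 6.81 CPM and Gpr15 4.39, 3.79, 5.27 and 5.29 in the 152 to 441 thinned cells with Itgae of each library. The 5 with the largest fall were Csf2rb2, Scrn2, Serpinb9b, Klk1 and Gzmd. Csf2rb2 and Scrn2 had 0 UMIs in the cells with Itgae of every library, so their folds are not exact. In the T cell clusters alone Klk1 had 0 CPM in both groups and Csf2rb2 at most 0.208, so that the fall of these 2 came from clusters 7 to 10. Serpinb9b, a protease inhibitor, had 47.9, 45.2, 35.4 and 54.7 CPM in T cells without Itgae and 0, 0, 0 and 0.776 in those with it. Gzmd, a granzyme gene, had 2.19, 11.4, 21.1 and 3.03 CPM in the cells with Itgae and 296, 209.6, 274 and 266 in those without, without overlap (adjusted p = 0.000683 in edgeR, lower in 4 of 4 libraries).

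Cxcl16, the ligand, was carried by myeloid cells. In the tumor CD45 sort it had 672, 664, 534 and 241 CPM over all cells, with a UMI in 69.3%, 63.8%, 57.9% and 28.9% of them (58.8%, 54.5%, 46.3% and 22.3% thinned). The level was lowest in the Aire-/- anti-PD1 tumor, with log2 ratios of -1.46 to the Aire+/+ anti-PD1 tumor and -1.15 to the Aire-/- isotype tumor. Macrophage-like cells, led by C1qa, C1qb, C1qc and Ms4a7, held 83.2% (82.7 to 83.6), 84.6%, 67.8% and 49.0% of the Cxcl16 UMIs. These cells made up 54.8%, 50.7%, 36.0% and 13.5% of the tumor libraries, and Cxcl16 had 980.1, 1037, 966 and 899.6 CPM within them, with a UMI in 96.0%, 97.8%, 98.1% and 96.4% of the cells. Per macrophage-like cell RNA, Cxcl16 thus varied little, by comparison with the share of such cells. Mature dendritic-like cells, led by Fscn1, Ccr7 and Ccl22, had the highest level of the named classes, with 1442, 1535, 1487 and 1368 CPM. They held 3.43%, 3.20%, 8.29% and 22.2% of the Cxcl16 UMIs with only 57, 32, 53 and 61 cells, a share that was largest in the Aire-/- anti-PD1 tumor. With classes set by marker gates in place of clusters, macrophages held 70.2%, 68.2%, 63.8% and 40.9% and mature dendritic cells 4.06%, 4.50%, 11.6% and 27.1%, so that the Aire-/- anti-PD1 tumor again had the lowest macrophage and the highest mature dendritic share. Between the Aire+/+ tumors the order of both shares turned.

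**Figure D4:**
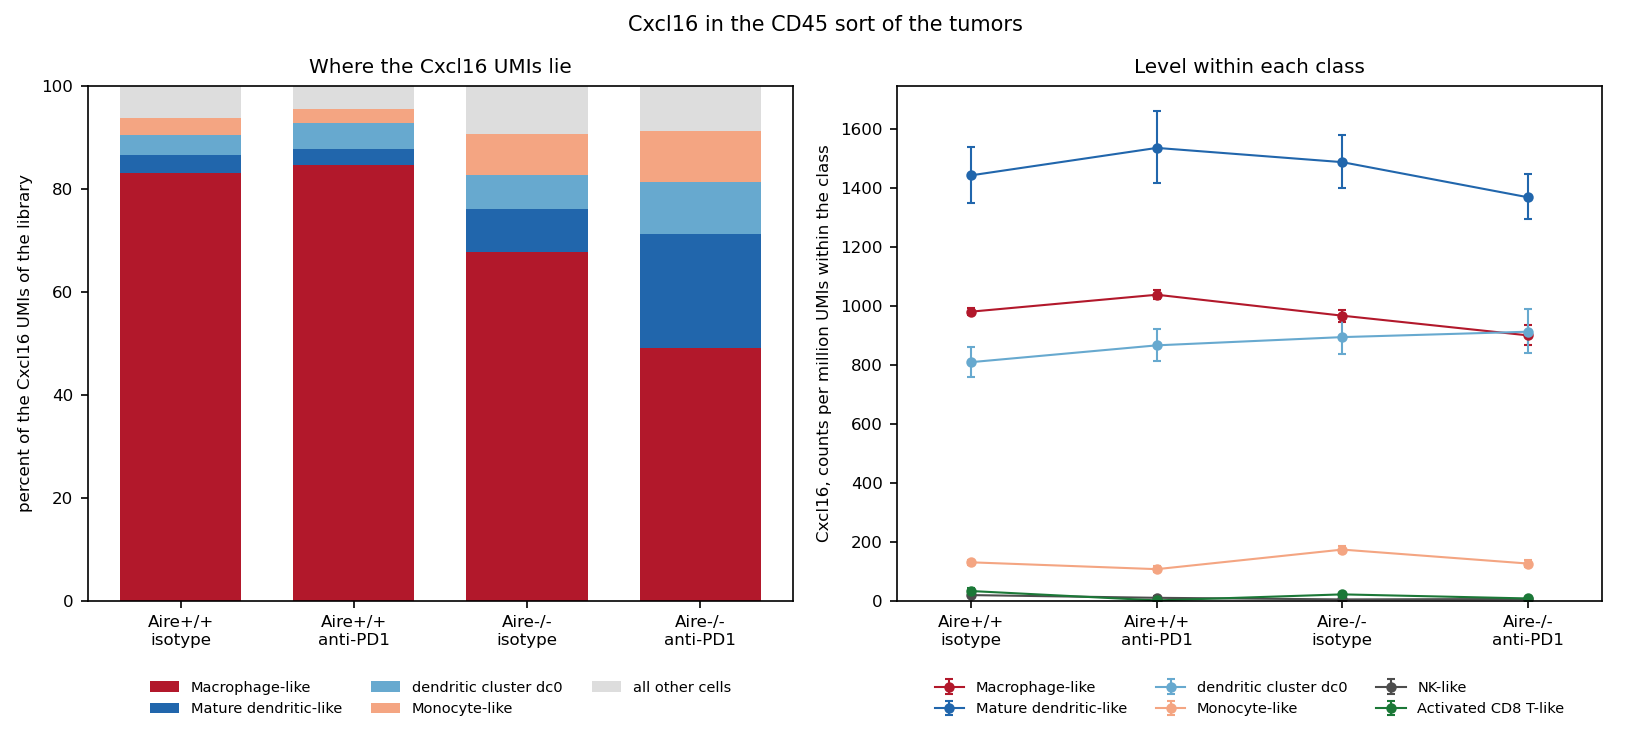
Left, percent of the Cxcl16 UMIs of each tumor library of the CD45 sort held by each class, and right, Cxcl16 in CPM within the class, with exact 95% intervals for counting error (dc0, dendritic cluster led by Ifitm1, Il1r2 and H2-Eb1). The macrophage-like share runs from 84.6% down to 49.0% while the level within these cells stays between 899.6 and 1037.

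Other myeloid classes carried Cxcl16 at lower or similar levels. The dendritic cluster led by Ifitm1, Il1r2 and H2-Eb1 had 809, 866, 894 and 912 CPM and held 3.84%, 5.04%, 6.66% and 10.1% of the UMIs, and a smaller dendritic cluster led by Il1r2, H2-Eb1 and H2-Ab1 had 1141, 1238, 1182 and 1418 CPM. Monocyte-like cells had 130.0, 107, 173 and 126 CPM of Cxcl16, far under the macrophage-like cells, and held 3.32%, 2.57%, 7.89% and 9.84%. Type 2 dendritic-like cells had 107, 183, 221 and 364 CPM and type 1 dendritic-like cells 133, 249.3, 396 and 347, on 5 to 29 cells per library and class. NK-like cells had 18.9, 9.70, 4.29 and 5.75 CPM of Cxcl16, with a UMI in 1.54% of the cells when thinned, at a median depth of 10118 against 12386 in macrophage-like cells, where it was 88.2%. The tumor CD8 sort, thinned, had a UMI of Cxcl16 in 1.30%, 1.62%, 1.61% and 1.40% of its cells, close to the share in NK-like cells. Regulatory T-like cells had 194, 108, 163 and 7.72 CPM of Cxcl16. Among them cells with 10 or more myeloid UMIs had 477, 717, 440.1 and 73.3 CPM and those with fewer had 12.4, 1.06, 2.33 and 5.33, so that in the first 3 tumors nearly all of this signal lay in 43, 9 and 11 cells that also held myeloid RNA. In the Aire-/- anti-PD1 tumor 2 such cells held 2 UMIs of Cxcl16 and the others 4. CD45 cluster 0, whose splenic cells are B-like, held 34, 19, 24 and 7 tumor cells. Their Cd79a and Cd79b sums were 81.4, 102, 65.9 and 1120 CPM, against 6458 to 6948 in the splenic cells. Their sums of C1qa, C1qb and C1qc were 3884, 6014, 6371 and 3565 CPM, against 0.192 to 2.27 in the splenic cells. These tumor cells thus held macrophage RNA, and their Cxcl16 levels were 549, 518, 862 and 232 CPM.

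In the CD8 sort the Cxcl16 UMIs of the tumors lay in the cells outside the T cell clusters. Plasmacytoid dendritic-like cells held 271, 105, 59 and 43 of them and macrophage-like cells 126, 130, 281 and 114, against 33, 42, 53 and 36 in all T cell clusters together. Over all cells Cxcl16 had 13.1, 10.2, 17.5 and 8.34 CPM in the tumors and 7.30, 3.86, 1.73 and 4.05 in the spleens, and in the T cell clusters 0.999, 1.62, 2.47 and 1.58 against 0.158, 0.109, 0 and 0.0639. Tumor lay above spleen in each condition (edgeR log2 fold change 1.43, adjusted p = 0.0306, higher in 4 of 4 conditions), and the adjusted p was under 0.05 in 9 of 12 alternatives, with fold changes of 0.98 to 4.20. In the T cell clusters alone the fold change was 4.02, on few UMIs. In the spleen CD45 sort Cxcl16 had 40, 13, 18 and 8 UMIs per library, or 3.30, 1.19, 1.61 and 0.634 CPM. Nearly all of these lay in dendritic-like and monocyte-like cells, and B-like cells had a UMI in 0.0203% of 4929 cells at a median depth of 4099. Tumor levels of Cxcl16 were thus higher than those of every spleen in both sorts. The sheddases Adam10 and Adam17 were measured in the CD8 sort and showed no tissue difference past the threshold, with log2 fold changes of -0.08 and 0.16 in edgeR (adjusted p = 0.152 and 0.161). Most cells of that sort are T cells, which held little Cxcl16. No value is given for the myeloid classes that carried it, so these folds do not bear on its release there.

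Across conditions of the tumor CD45 sort, Cxcr6 and Cxcl16 ran in opposite orders. Cxcr6 had 50.6, 62.0, 100.1 and 301 CPM over all cells, lowest in Aire+/+ isotype and highest in Aire-/- anti-PD1, and set as Aire-/- over Aire+/+ its log2 ratio came to 2.28 under anti-PD1 and 0.99 under isotype. The ligand had the reverse order, with -1.46 and -0.33. Activated CD8-like cells, the main carriers of Cxcr6, made up 160, 250, 264 and 790 cells of these libraries. In such sums fewer cells of a type and less RNA per cell cannot be told apart, and the levels within the classes given above are the measure per cell RNA.

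Over the 16 libraries, 8530 genes reached 10 CPM in at least 4, and the 3 genes whose log2(CPM + 10) was most alike to each member were found by Pearson correlation, as a description of libraries that differ in sort and tissue. For Itgae they were Lfng (r = 0.944), Tmem9b (0.934) and Peli1 (0.920). For Itga1 they were Cd47 (0.995), Ttc39c (0.993) and Lag3 (0.992), and for Cd69 Abcb1b (0.990), Ubash3b (0.989) and Il12rb1 (0.988). For Cxcr6 they were Ppm1j (0.985), Il2rb (0.981) and Igflr1 (0.980), and for Cxcl16 Mmp14, Ets2 and Basp1 (0.994 each). Itgae had the lowest values of the 5 members, and none of its 3 genes is on the lists above. With CPM + 1 in place of CPM + 10, all 3 genes of Itgae, 2 of Itga1, 2 of Cd69, 2 of Cxcr6 and none of Cxcl16 were the same.

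In GENCODE M21 (GRCm38), Itgae (ENSMUSG00000005947) lies at chr11:73090583-73147446 on the plus strand, Itga1 (ENSMUSG00000042284) at chr13:114953096-115101964 on the minus strand and Cd69 (ENSMUSG00000030156) at chr6:129267325-129275436 on the minus strand. Cxcr6 (ENSMUSG00000048521) lies at chr9:123806475-123811760 on the plus strand, inside Fyco1 of the other strand, and Cxcl16 (ENSMUSG00000018920) at chr11:70453983-70459984 on the minus strand, with an overlap of Zmynd15 on the other strand. Itgae and Cxcl16 are thus on 1 chromosome. Itga1 overlaps Pelo and Gm49395 on its own strand and Gm10734 on the other, and Haspin lies inside Itgae on the other strand. Whether reads of the overlaps were assigned to one gene or the other was not tested. The RefSeq promoter table at hand (GRCm38.p6, 250 bases before to 50 bases after the start) held 2 of the 5 members, Itga1 and Cxcr6, which are shown for that reason, and not Itgae, Cd69 or Cxcl16. Motifs searched on both strands were Runx (TGTGGT), Smad (CAGAC), AP-1 (TGANTCA), and T-box, NBRE and NF-kB elements by name. In the order given they occur in 16.8%, 49.6%, 7.81%, 1.28%, 1.51% and 8.46% of 32851 promoters of the same length. Capitals mark the matches. Itga1 at chr13:115101915-115102214 (minus strand) has 1 Smad match, on the reverse strand at -180. Cxcr6 at chr9:123806227-123806526 (plus strand) has a Runx match on the reverse strand at -10 that overlaps a Smad match at -13, and another Smad match at 14.
Itga1: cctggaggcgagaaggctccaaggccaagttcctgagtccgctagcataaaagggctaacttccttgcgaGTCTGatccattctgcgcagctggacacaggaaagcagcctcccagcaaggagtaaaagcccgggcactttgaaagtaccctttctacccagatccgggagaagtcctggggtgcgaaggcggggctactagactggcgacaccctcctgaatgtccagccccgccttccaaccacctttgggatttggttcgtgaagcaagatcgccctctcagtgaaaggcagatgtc
Cxcr6: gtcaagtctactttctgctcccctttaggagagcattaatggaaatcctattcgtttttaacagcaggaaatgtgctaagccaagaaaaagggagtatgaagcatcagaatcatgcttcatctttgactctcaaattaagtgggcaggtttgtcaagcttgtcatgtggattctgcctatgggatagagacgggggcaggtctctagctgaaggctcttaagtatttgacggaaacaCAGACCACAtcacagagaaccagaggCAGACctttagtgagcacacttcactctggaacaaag
A match describes letters in this window, and no factor's binding was measured.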

How the data were processed

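The deposited values are counts: per the labels, the authors made UMI counts per gene and barcode from 10x Genomics libraries, and all 16 tables held whole numbers. The labels and the article's section on single-cell RNA name a 3′ kit, and its section on T cell receptors a 5′ kit. Of 25127 rows 27 vector rows were dropped, and rows of 1 symbol were summed to 24469 symbols. Cells with at least 200 genes and at most 20% mitochondrial UMIs were kept, which removed 1 to 29 per library. Levels are counts-per-million of a library's or class's UMIs, with exact Poisson, binomial or conditional intervals. Thinning drew UMIs without replacement (seed 1).

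Clusters came from 1000 variable genes without the 5 members, 15 principal components, 30 neighbours and Leiden (leidenalg 0.10.2, igraph 0.11.9, scikit-learn 1.9.0) at resolution 0.4, and were named by lists of marker genes. Summed counts were tested in R 4.3.3 with edgeR 4.0.16 (quasi-likelihood, TMM scaling, Benjamini-Hochberg adjusted p under 0.05), and with DESeq2 1.42.0 as an alternative. Tumor minus spleen had the condition as block and cells with minus without Itgae the library. The steps were tested on simulated data. Tables were handled in Python 3.11.15 with numpy 2.4.6 and scipy 1.17.1, and figures drawn with matplotlib 3.10.9.

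Named genes are the 5 members, their partners and the genes of the lists, beside the genes that lead a cluster, those with the largest fold changes and those most alike. The members and lists were chosen with earlier results of these data known. Zfp683 and Trac have no row. Samples were grouped by the labels of genotype, treatment, tissue and sort. The alternatives changed the tool, scaling, filters, thinning, cells, clusters and libraries.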

Additional observations from a re-analysis of the deposited data

Results flagged for a closer look

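Among 4 tumor libraries of the CD45 sort, Aire-/- anti-PD1 lay far from the other 3 for Itgae, at 41.7 CPM, and for Cd69, at 425 CPM. Chance flags about 1 in 20 groups, and 20 groups were looked at. In the T cell clusters of the CD8 sort, 4 pairs of log2 ratios had opposite signs with UMI-count intervals that left out 0 in both. Other pairs, such as those of Itga1, differed in sign with an interval that held 0, and no difference was tested. Cd69 of the tumors, Aire-/- over Aire+/+, was 0.13 under anti-PD1 and -0.21 under isotype. Cxcr6 of the tumors, anti-PD1 over isotype, was -0.038 in Aire+/+ and 0.19 in Aire-/- mice. Cxcr6 of the spleens, by the same ratio, was -0.30 in Aire+/+ and 0.31 in Aire-/- mice. Cxcl16 of the tumors, by the same ratio, was 0.70 in Aire+/+ and -0.64 in Aire-/- mice, on 33 to 53 UMIs per library.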

How the results depend on the processing

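No called fold change of the 5 genes in the edgeR tests changed direction in the alternatives run. The Itgae ratio of anti-PD1 over isotype in Aire-/- mice did so within cluster 1, where it was -0.22 (-0.46 to 0.01). Called fold changes of other named genes changed direction within single clusters, where they missed the threshold. Between cells with and without Itgae, Cxcr4 had 0.73 over all cells and -0.24 in cluster 2, Ccr7 -0.87 and 0.20 in cluster 1, and Havcr2 -0.37 and then 0.19 in cluster 2 and 0.22 in cluster 1. In cluster 1 Lef1 went from -0.88 to 0.99, Nr4a2 from -0.55 to 0.24 and Tigit from -0.42 to 0.10. In cluster 2 Litaf went from -0.31 to 0.07 and S1pr1 from 1.08 to -0.02. Gzmk, not called over all cells with 0.22, was lower in cluster 2 with -0.58 (adjusted p = 0.0404 in edgeR). The Cxcl16 ratios between tumors of the CD8 sort changed sign in 3 of the 4 comparisons, on 194 to 459 UMIs per library over all cells and 33 to 53 in the T cell clusters. The alternatives without clusters 7 to 10, or with cluster 1 or 2 alone, were chosen after seeing the data. No paired analysis by replicate was possible because the labels give no replicate numbers, and the tests were blocked by condition or library. The cause of each change below was not tested.

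The number of genes past the threshold between cells with and without Itgae, 1300, was 685 with DESeq2, 2120 without thinning, 321 with cells thinned to 1000 UMIs, 773 without cells of 3 or more other-lineage UMIs, 432 in cluster 2 and 245 in cluster 1. Leaving out 1 library in turn gave 844 to 1222, with the lowest without Aire-/- anti-PD1. For tumor minus spleen, 8785 genes passed, and 7997 to 8495 when 1 condition in turn was left out.

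The Itgae log2 ratio of Aire-/- over Aire+/+ under anti-PD1 was 1.38 without cells of other-lineage UMIs and 1.66 as a mean per cell, and under isotype 1.002 without those cells. For anti-PD1 over isotype in Aire-/- mice it was 1.16 with thinned cells and 1.21 as a mean per cell. All 4 ratios of Itgae passed 1.5-fold in 7 of 7 alternatives that pool clusters of the CD8 sort. Within cluster 1 the ratios of anti-PD1 over isotype did not, with 0.56 in Aire+/+ and -0.22 in Aire-/- mice, and in the gated CD8 cells of the CD45 sort those of Aire-/- over Aire+/+ under isotype, with 0.08, and of anti-PD1 over isotype in Aire+/+ mice, with 0.40, did not.

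Median ratios of detection with and without Itgae were 1.88 for Itga1, 1.28 for Cd69 and 1.14 for Cxcr6. Without thinning they were 1.13, 1.10 and 1.06. Thinned to 1000 UMIs, Itga1 had 2.37, with 0.732 in the Aire+/+ isotype tumor, where 1 of 48 cells with Itgae had it, Cd69 had 1.59 and Cxcr6 1.30, thinned to 6000 Cxcr6 had 1.09, and without cells of other-lineage UMIs Cxcr6 had 1.19 and Cd69 1.17.

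The macrophage share of Cxcl16 UMIs was 70.2%, 68.2%, 63.8% and 40.9% by marker gates, and 70.3%, 68.2%, 63.8% and 40.9% by the same gates with no cell filter. It was 83.9% in the Aire+/+ anti-PD1 tumor at resolution 0.8, and with thinned cells 85.3%, 71.9% and 55.4% in the last 3 conditions. The mature dendritic share was 4.06%, 4.50%, 11.6% and 27.1% by gates, with the cell filter and without it, and 4.81%, 3.76%, 9.19% and 18.9% with thinned cells.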

Other observations

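Splenic cluster 6, led by Ccl5, Gzma, Itgb1 and Klrg1, had more Itgae, Itga1 and Cxcr6 than the naive T-like cluster 0 in all 4 spleens, but less Cd69. Its 100, 92, 222 and 223 cells had 69.0, 50.7, 40.9 and 51.3 CPM of Cd69, against 91.4, 95.1, 101 and 108 in cluster 0. High Itgae and Cxcr6 thus went without high Cd69 there. The difference was noticed in these data and not tested.

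Each condition is 1 pool of mice, so differences between mice, pools and library preparations cannot be told apart from those of genotype or treatment. Aire RNA was too sparse to check the genotypes. Lack of a UMI does not show lack of expression, and shares rise with depth. Doublets and free RNA were not removed, and protein was not measured. Sections of the article name different kit ends, and reads in overlapping genes could not be assigned anew.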
